A study of Mus musculus with 2 samples.

Results

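The proteasome genes of 14837 cells kept in medium conditioned by cancer-associated fibroblasts (CAFs) were taken as every gene symbol made of Psm, 1 letter from a to g and a number, with pseudogenes left out. The rule found 48 genes among 21983 entries of the deposited count table. It covers the core particle, its regulatory cap, activators, an inhibitor and assembly factors. 14837 is a mouse pancreatic ductal adenocarcinoma line of the C57BL/6 strain, whose growth medium was DMEM supplemented with fetal bovine serum (10%) and penicillin (100 U/ml). Conditioned medium is medium in which other cells have grown, and the cells stayed in it for 48 h before RNA was taken. The labels name a library of cells in CAF medium and another of cells in 14837 medium, 1 of each, but only 1 value column could be tied to a library, the CAF one. The 2 media were therefore not compared, and every value here is a level within 1 library, with no replicate error and no test. The sources used here do not say whether the line is 1 clone or where the CAFs came from.

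The proteasome is the barrel-shaped protease that degrades proteins tagged with ubiquitin. Its core is a stack of rings, with alpha subunits forming the outer gates and beta subunits the inner chamber, where only Psmb5, Psmb6 and Psmb7 carry active sites in the constitutive form. Interferon-gamma makes many cells replace these with Psmb8, Psmb9 and Psmb10, which gives the immunoproteasome, a form that changes which peptides reach MHC class I molecules. A cap of ATPases, further base subunits and a lid recognises ubiquitin chains, removes them and feeds the unfolded protein into the core.

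The library held 21269197 counts, and 11569 entries had at least 10 counts. Levels are given as CPM, the count divided by that total and multiplied by 1000000. Where genes are set against each other the level is CPM per kilobase of all exons, since longer genes collect more counts. Values in brackets are 95% limits from the Poisson distribution, computed exactly, and speak to counting error alone. A count of 0 is given as listed at 0, with a set limit of 3 counts or 0.141 CPM that covers counting error only. The exact interval used for the other counts would end at 0.173 CPM for a count of 0. The mitochondrial energy genes Atp5a1 and Uqcrc1, which most cells use, were also listed at 0, so such an entry is not read as lack of expression. Of 8 epithelial markers, 6 had 10 counts or more, and the list summed to 3972 CPM, although Epcam had 2 counts and Cldn4 was listed at 0. Of 11 fibroblast markers, 3 had 10 counts or more, and their sum of 37.0 CPM was nearly all Pdgfra at 34.2 CPM, with Col1a2, Col3a1, Dcn, Lum, Thy1 and Postn listed at 0. The 4 endothelial markers had 9 counts in all. Markers of immune cells, which carry immunoproteasomes, summed to 5.78 CPM over 8 genes, nearly all of it Cd68 at 5.69 CPM, with Csf1r, Itgam, Lyz2 and Cd3e listed at 0. In bulk RNA, fewer cells of a type and less RNA per cell cannot be told apart.

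Constitutive subunits had high counts, while of the immunoproteasome subunits Psmb8 was listed at 0, Psmb9 had 1 count and Psmb10 had 332. Of the 48 genes, 43 had at least 10 counts, while 52.6% of all entries did. At or above the median gene with at least 10 counts, which stood at 37.9 CPM, lay 38 of the 48, beside 26.3% of all entries. A level of 100 CPM or more was reached by 32 of the 48, beside 12.5% of all entries. The median of the 48 was 149 CPM, and together they held 0.743% of all counts. The 10 below the median gene in CPM were Psma8, the 3 immunoproteasome genes, Psmb11, Psmd10, Psme2, Psmg1, Psmg3 and Psmg4. The 31 constitutive subunits of the core and cap matched by the rule, leaving out the germ-cell subunit Psma8, were all above it, from 74.9 to 455 CPM. Per kilobase, 42 of the 48 lay at or above the median gene of that scale, 8.14 CPM per kilobase, beside 26.3% of the 21900 genes with a length. The 6 below were Psma8, Psmb8, Psmb9, Psmb11, Psmd10 and Psmg3.

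**Figure D1:**
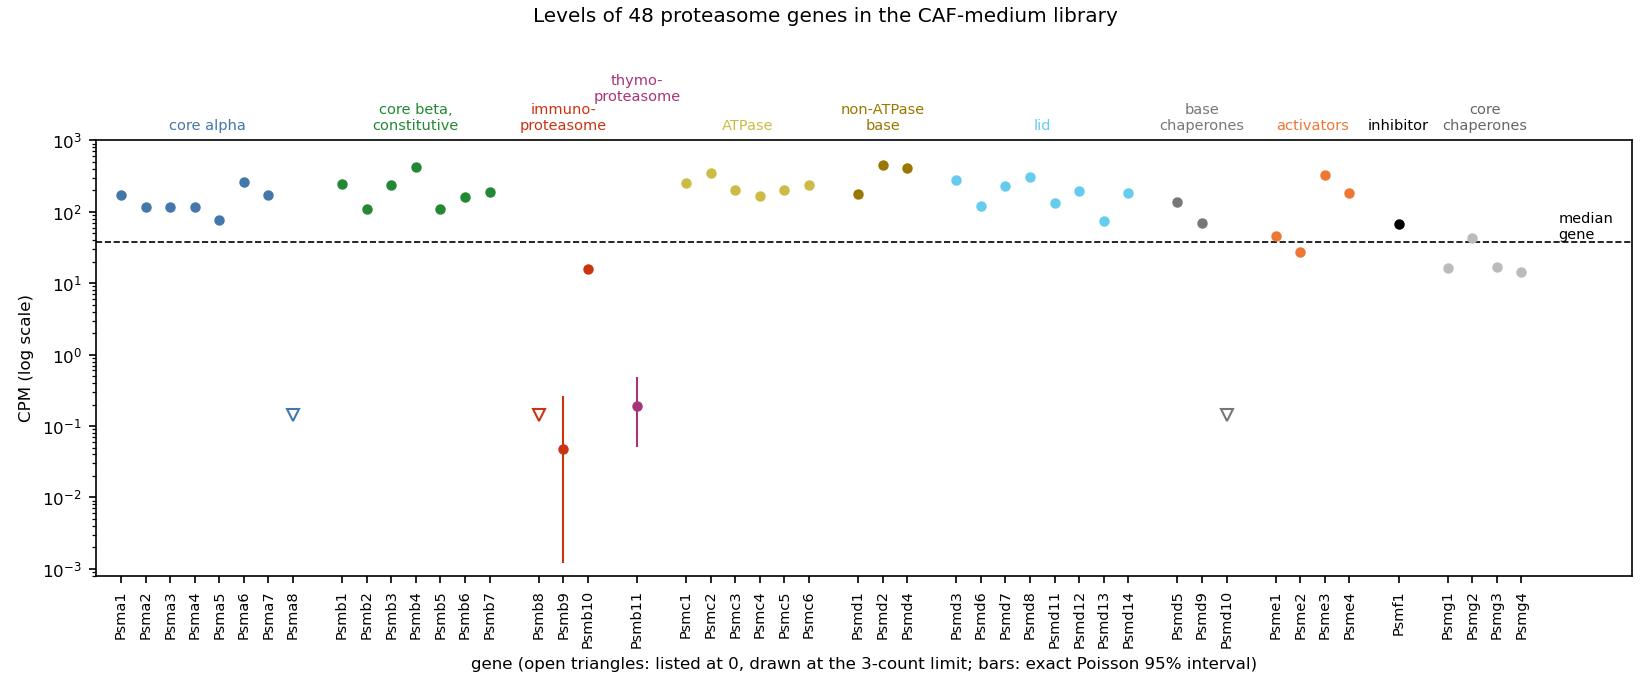
Level in CPM (log axis) of each of the 48 genes in the CAF-medium library, grouped by role, with exact Poisson 95% intervals. The dashed line is the median gene at 37.9 CPM, open triangles are genes listed at 0 drawn at the 3-count limit. All 31 constitutive core and cap subunits lie above the line, and Psmb8, Psmb9, Psmb10 and Psmb11 below it.

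Promoter sequences of the genes for the exchangeable catalytic subunits are shown because these genes set the constitutive form apart from the immunoproteasome. RefSeq promoter windows of 300 bases, from 250 before to 50 after a start, were available for 40 of the 48 genes, and Psmb7 is among those without one. Only stretches outside annotated exons are printed, on the gene's own strand and build GRCm38.p6 (mm10), and capitals mark a motif match. The stretch for Psmb5 is chr14:54618023-54618245 on the minus strand, that for Psmb6 chr11:70525107-70525356 on the plus strand, and that for Psmb10 chr8:105938445-105938642 on the minus strand.
Psmb5: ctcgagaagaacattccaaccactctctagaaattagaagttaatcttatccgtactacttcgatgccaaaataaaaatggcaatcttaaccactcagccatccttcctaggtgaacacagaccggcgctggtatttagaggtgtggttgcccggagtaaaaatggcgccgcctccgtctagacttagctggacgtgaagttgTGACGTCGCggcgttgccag
Psmb6: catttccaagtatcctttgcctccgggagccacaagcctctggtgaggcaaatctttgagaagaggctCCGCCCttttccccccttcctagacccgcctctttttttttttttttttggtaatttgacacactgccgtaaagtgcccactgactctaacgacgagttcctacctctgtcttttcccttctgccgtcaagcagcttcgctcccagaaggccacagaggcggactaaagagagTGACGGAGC
Psmb10: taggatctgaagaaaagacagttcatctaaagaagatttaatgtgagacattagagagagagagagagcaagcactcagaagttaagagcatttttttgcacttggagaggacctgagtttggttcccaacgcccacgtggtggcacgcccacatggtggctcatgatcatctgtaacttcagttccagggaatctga
Capitals mark TGACNNNGC, the core of the antioxidant response element that the proteasome regulator NFE2L1 is known to bind, in Psmb5 and Psmb6, and the reverse complement of GGGCGG, a GC box, in Psmb6. The stretch of Psmb10 held no match to any of the 5 motifs searched.

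The 250 bases before the starts of Psmb8 and Psmb9 lie within exons annotated for other isoforms or neighbours, so for each only 30 bases around a match are shown. In Psmb8 the match is to TTCNNNGAA, the letters of a gamma-activated site (GAS), at chr17:34198087-34198116 on the plus strand, beginning 97 bases before the RefSeq start. In Psmb9 it is a GC box at chr17:34187368-34187397 on the minus strand, in the 225 bases between the RefSeq starts of Psmb9 and Tap1, which point away from each other. The Psmb9 window also held 1 match to CCAAT, another motif searched. That match begins 8 bases before the RefSeq start and is not printed.
Psmb8: gtcctccgctgTTCCCAGAAgatgcccccc
Psmb9: tgcgcgatgatgGGGCGGggcctcagtctg
All matches were searched on both strands, and those printed do not overlap another motif. A match is a run of letters and not a shown binding site.

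Over the 40 genes with a window, TGACNNNGC was found in 6, or 15%, beside 14% of the 27025 genes with a promoter window. TTCNNNGAA was found in 3 (7.5%, beside 9.55%), namely Psmb8, Psmd2 and Psmg1. GAAANNGAA, a core of the interferon-stimulated response element, was found in 7 (17.5%, beside 9.76%). These were Psmb3, Psmb4, Psmc2, Psmd4, Psmd9, Psme1 and Psmg4, so Psmb8, Psmb9 and Psmb10 were not among them. CCAAT was found in 14 (35%, beside 41.1%) and GGGCGG in 23 (57.5%, beside 38.2%). With 1 more A at its end, the form first searched, GAAANNGAA was found in 5 (12.5%, beside 3.99%). The shorter form was taken up after those values were known, and the gap between members and all genes depends on the form.

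In each of the 3 catalytic pairs the constitutive subunit had more counts than its replacement, by the smallest ratio for Psmb7 and Psmb10. Psmb5 (chromosome 14, 54614119 to 54618022, minus strand), the chymotrypsin-like subunit, had 2289 counts or 108 CPM (103 to 112). Its replacement Psmb8 (chromosome 17, 34197721 to 34201454, plus strand) was listed at 0. Per kilobase of exon, the level of Psmb5 was 2870 times the 3-count limit of Psmb8, or 1619 times on the longest transcript. Since genes that most cells use were also listed at 0, this is no bound on the difference in expression. Identical pieces of another transcript, Gm3375, cover 41.5% of the Psmb5 transcript windows, so reads of Psmb5 could be split or shared. Psmb8 has no such window, in a search that left out genes overlapping it. Exons of Mir686 overlap 12.1% of the exonic bases of Psmb5, and exons of Gm20496 overlap 14.7% of those of Psmb8.

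Psmb6 (chromosome 11, 70525367 to 70527858, plus strand), the caspase-like subunit, had 3428 counts or 161 CPM (156 to 167). Its replacement Psmb9 (chromosome 17, 34181987 to 34187764, minus strand) had 1 count, and the ratio per kilobase was 6702 with a counting interval of 1202 to 264798. This interval covers counting error only and, as for Psmb8, is no bound on the difference in expression. Psmb7 (chromosome 2, 38588036 to 38644087, minus strand), the trypsin-like subunit, had 4047 counts or 190.3 CPM (184 to 196), with 11.8% of its exonic bases in exons of Nek6. Its replacement Psmb10 (chromosome 8, 105935735 to 105938444, minus strand) had 332 counts or 15.6 CPM (14.0 to 17.4). Per kilobase Psmb7 was 6.08 times Psmb10 (5.43 to 6.82). Against the 1 count of Psmb9, the ratio of Psmb10 per kilobase was 713, with a counting interval of 127 to 28233, likewise no bound. At 9.16 CPM per kilobase Psmb10 was just above the median gene on that scale, 8.14, although below the median gene in CPM. The 3 immunoproteasome genes together held 3.30% of the counts of the 6 catalytic genes.

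Psmb11, which takes the place of Psmb5 in the epithelium of the thymic cortex, had 4 counts or 0.188 CPM (0.0512 to 0.482). It lies 3410 bases from Psmb5 on chromosome 14, on the other strand. Against these 4 counts, the ratio of Psmb5 per kilobase was 3050, with a counting interval of 1189 to 11202. As for Psmb9, this is no bound on the difference in expression.

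**Figure D2:**
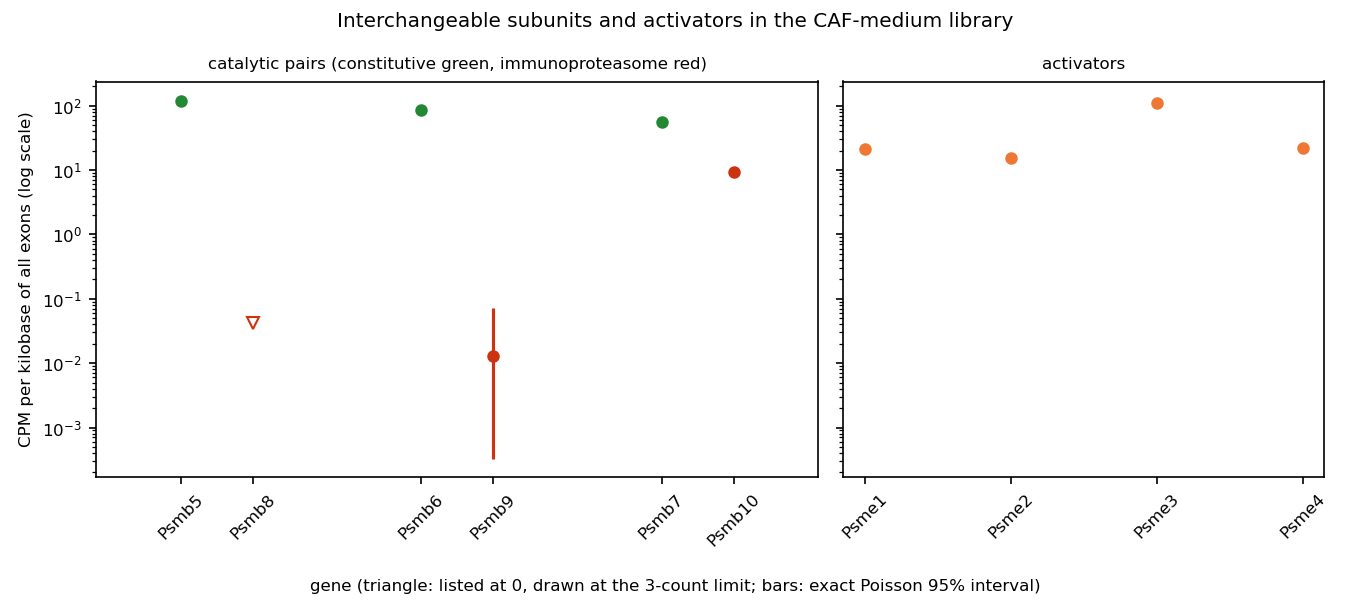
Level in CPM per kilobase of all exons (log axis) of the 3 catalytic pairs, constitutive in green and immunoproteasome in red, and of the 4 activators in orange, with exact Poisson 95% intervals. Psmb8 is listed at 0 and drawn at the 3-count limit. Psmb10 at 9.16 is the immunoproteasome gene nearest its constitutive partner.

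Psmb8 and Psmb9 are neighbours in the MHC region, interleaved with the peptide transporter genes Tap1 and Tap2. All 4 genes of this block had 16 counts or fewer. Only Tap1 among them had at least 10 counts, while 52.6% of all entries did. The 4 genes span 34335 bases of chromosome 17, from 34181987 to 34216321, and the annotated bodies of Psmb9 and Tap1 overlap. Tap1 had 16 counts or 0.752 CPM (0.43 to 1.22). Tap2 had 9 counts or 0.423 CPM (0.193 to 0.803), with 18.5% of its exonic bases in exons of Gm15821 and Gm20496. These transporters carry the peptides that proteasomes make into the endoplasmic reticulum. Within 100 kb on either side, a window widened from 50 kb after the nearer genes were seen to be low, Brd2, a chromatin reader, stood at 498 CPM (489 to 508), so the wider region held a gene with many counts. The MHC class II genes there were low as well, with H2-DMa at 57 counts, H2-DMb1 at 7 and the other 6 listed at 0. Of all 21983 entries, 8056 were listed at 0. The annotated bodies of H2-DMa and Brd2 overlap. Psmb10 lies outside this region, on chromosome 8.

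**Figure D3:**
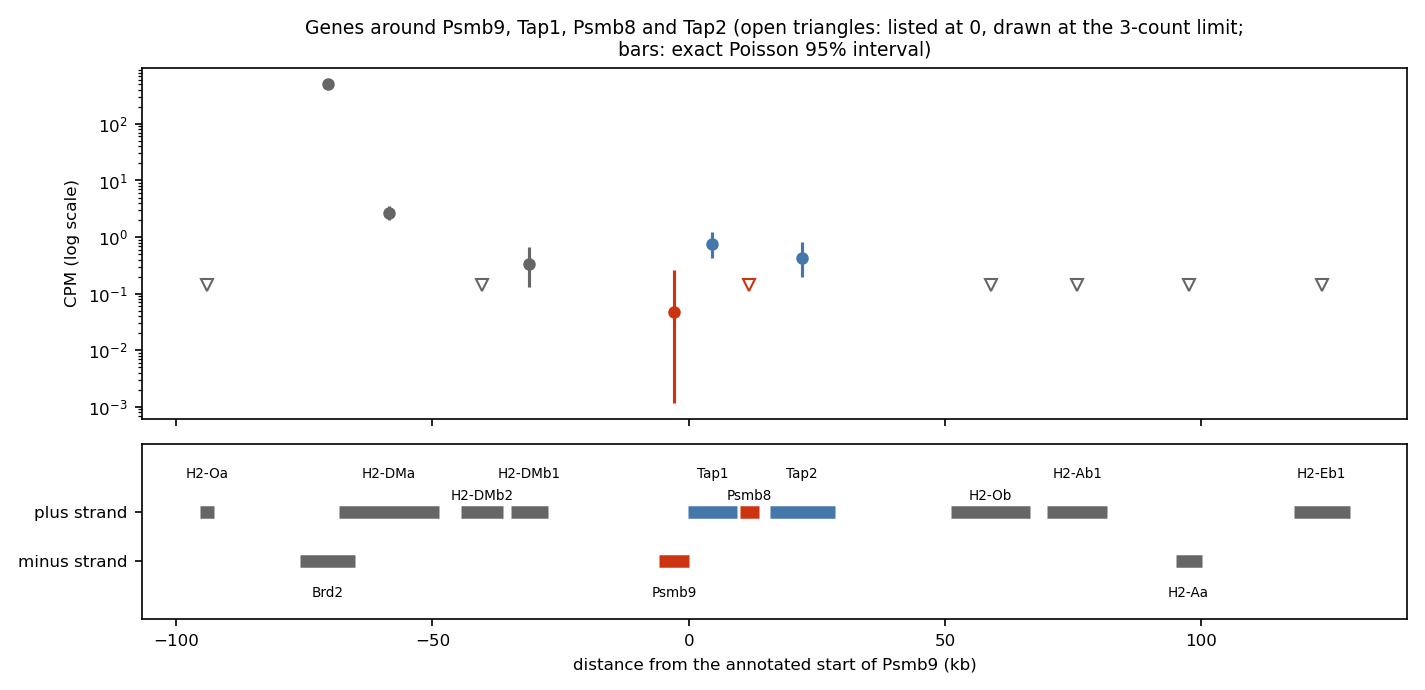
Protein-coding genes within 100 kb of the block from Psmb9 to Tap2, by distance in kb from the annotated start of Psmb9, with their level in CPM (log axis, exact Poisson 95% intervals) above and their strand below. Open triangles are genes listed at 0, drawn at the 3-count limit. Brd2 at 498 CPM is the only gene in the window above 3 CPM.

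The other genes of interferon-gamma signalling and class I presentation were mostly higher. Of 14 interferon-gamma signalling genes, 9 lay at or above the median gene, beside 26.3% of all entries, with a list median of 60.1 CPM. Irf9, a DNA-binding factor of the response to type I interferon, stood at 156 CPM. The kinases Jak1 and Jak2 stood at 154 and 119 CPM. Irf1, which is known to drive immunoproteasome genes, stood at 48.5 CPM (45.6 to 51.5) and 12.2 per kilobase. Nlrc5, a coactivator of class I genes, stood at 14.8 CPM (13.2 to 16.5) and 1.74 per kilobase, below the median gene on both scales. Ifng itself and Irf8 were listed at 0, and the class II coactivator Ciita had 3 counts. Of 11 antigen presentation genes, 8 lay at or above the median gene, beside the same 26.3%, and only Tap2 had under 10 counts. The chaperones Calr and Pdia3, which help to load class I molecules, stood at 1658 and 1138 CPM. H2-D1, a class I heavy chain, stood at 903 CPM, and B2m, the light chain, at 866 CPM. Per kilobase, Tapbp, which tethers the transporter to class I molecules, was 367 times Tap1 (226 to 642), with 29.0% of its exonic bases overlapped by other genes. That ratio rests on the 16 counts of Tap1, and its interval covers counting error only, so it is no bound on the difference in expression.

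The alpha ring was uneven, with 1 gene well above the rest. Psma6 (chromosome 12, 55384222 to 55418454, plus strand) reached 209 CPM per kilobase (204 to 215), from 5487 counts or 258 CPM. Psma1 had 3630 counts or 171 CPM, Psma7 had 3596 counts or 169 CPM, and Psma5 had 1631 counts or 76.7 CPM. Per kilobase these 3 came close together, at 57.8 (55.9 to 59.7), 55.1 (53.3 to 56.9) and 58.0 (55.3 to 60.9), and their counting intervals overlap. On the longest transcript they lay apart, at 142, 112 and 61.9, so this order depended on length. Psma5 shares 47.3% of its windows with pseudogenes. Psma4 had 2492 counts or 117 CPM, which gave 49.4 per kilobase, with 17.4% of windows shared. The lowest pair per kilobase was Psma2, with 2463 counts or 116 CPM and 31.5 per kilobase, and Psma3, with 2444 counts or 115 CPM and 29.5 per kilobase. Psma3, an alpha subunit like the others with no catalytic site, shares 21.3% of its windows. Psma8, the germ-cell counterpart of Psma7, was listed at 0.

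Of the constitutive beta subunits without an active site, Psmb4 (chromosome 3, 94884093 to 94886961, minus strand) was highest per kilobase, at 215 (210.4 to 219). It had 8914 counts or 419 CPM. Psmb3 followed with 5065 counts or 238 CPM and 104 per kilobase (101 to 106). Psmb2 had 2360 counts or 111 CPM, but with only 1204 exonic bases it stood at 92.2 per kilobase (88.5 to 96.0), above Psmb1. Psmb1 had 5131 counts or 241 CPM and 52.5 per kilobase (51.1 to 54.0). The catalytic Psmb5, Psmb6 and Psmb7 lay within this range, at 119.7, 86.1 and 55.6 per kilobase. This depended on length. By the longest transcript Psmb6 lay within the range at 167. Psmb5 at 119.7 and Psmb7 at 66.8 then lay below its lowest gene, Psmb1 at 122. All 7 constitutive beta genes passed 100 CPM, with a median of 190.3 CPM.

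The ATPases, which form the ring that unfolds substrates, spanned a narrower range than the alpha ring, the beta ring or the lid. Psmc5 had 4318 counts or 203 CPM, and was highest per kilobase at 146 (141 to 150.05). Psmc1 had 5457 counts or 257 CPM and 133 per kilobase (129 to 136), with 10.4% of windows shared with pseudogenes. The other 4 lay lower and close to each other per kilobase. Psmc3 had 4284 counts or 201 CPM and 77.3 per kilobase (74.96 to 79.6). Psmc4 had 3493 counts or 164 CPM and 75.9 per kilobase (73.4 to 78.5), within the interval of Psmc3. Psmc2 had the most counts of the 6, with 7390 or 347 CPM, but 69.1 per kilobase (67.5 to 70.7). Psmc6 had 4965 counts or 233 CPM and 66.7 per kilobase (64.9 to 68.6). The highest was 2.18 times the lowest per kilobase. On the longest transcript Psmc1 was highest, at 161, and Psmc4 lowest, at 87.2.

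Among the non-ATPase subunits of the base, Psmd4 and Psmd2 stood well above Psmd1. Psmd4, a ubiquitin receptor, had 8811 counts or 414 CPM and 148 per kilobase (144 to 151). Psmd2, a scaffold that docks ubiquitin receptors and shuttles, had 9672 counts, the most of the 48 genes, or 455 CPM and 113 per kilobase (110.4 to 115), with 18.5% of windows shared with Gm5422. Psmd1, the related scaffold, had 3824 counts or 179.8 CPM and 24.7 per kilobase (24.0 to 25.5). Psmd2 was 4.55 times Psmd1 per kilobase (4.38 to 4.73), and 2.62 times on the longest transcript. The base also holds the ubiquitin receptor Adrm1, outside the symbol rule, which stood at 72.7 CPM (69.2 to 76.5) and 16.3 per kilobase, with 14.1% of windows shared.

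The lid spread more widely. Psmd8 had 6586 counts or 309.6 CPM, and Psmd7, which pairs with the deubiquitinase, had 4869 counts or 229 CPM. Both stood at 101 per kilobase, with intervals of 98.9 to 104 and 98.4 to 104. Psmd12 had 4094 counts or 192 CPM and 72.7 per kilobase. Psmd14, the deubiquitinase that removes ubiquitin chains from substrates, had 3882 counts or 183 CPM and 64.7 per kilobase (62.7 to 66.8). Psmd3 had 5932 counts or 279 CPM and 56.2 per kilobase, and Psmd6 2549 counts or 119.8 CPM and 42.8 per kilobase. The lowest pair of the lid was Psmd13 and Psmd11. Psmd13 had 1594 counts or 74.9 CPM and 22.2 per kilobase, with exons of Sirt3 over 10.1% of its exonic bases. Psmd11 had 2806 counts or 132 CPM and 20.7 per kilobase, which is 0.931 times Psmd13 (0.875 to 0.991). On the longest transcript the ratio was 1.18, so the order of these genes depended on length. Sem1, a small lid subunit outside the symbol rule and named after its value was seen, stood at 153 CPM and 43.2 per kilobase.

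The finished particle holds the subunits of a ring in equal number, so their levels per kilobase were set side by side. The median per kilobase was 92.2 for the constitutive beta ring, 76.6 for the ATPase ring, 60.4 for the lid and 55.1 for the alpha ring without Psma8. On the length of the longest transcript the medians were 129, 108, 97.4 and 101, so the order of the lid and the alpha ring depended on the length used. Within a ring, the highest gene exceeded the lowest by 7.08 times in the alpha ring (Psma6 over Psma3), 4.09 times in the beta ring (Psmb4 over Psmb1) and 4.90 times in the lid (Psmd8 over Psmd11). Psma6, Psmb4 and Psmd8 stayed highest in their rings on the longest transcript, while the lowest genes became Psma2, Psmb7 and Psmd13.

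**Figure D4:**
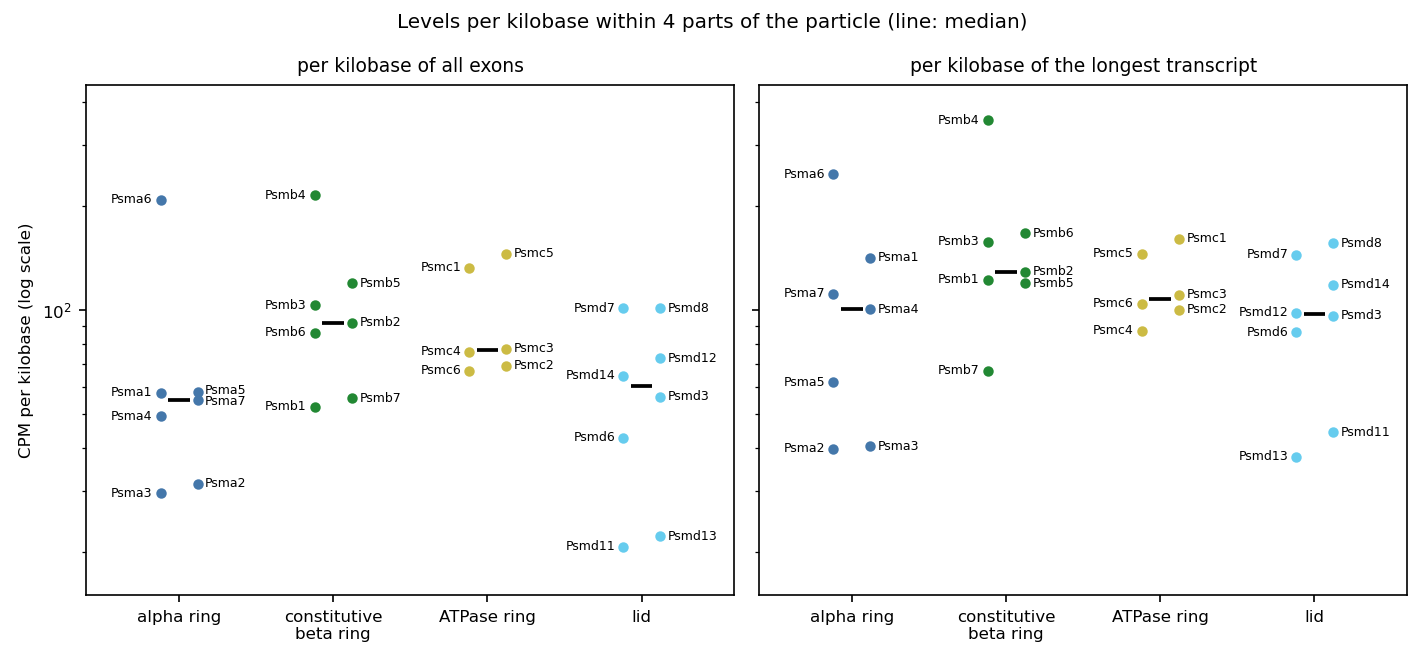
Level in CPM per kilobase (log axis) of each gene in the alpha ring, the constitutive beta ring, the ATPase ring and the lid, with the length of all exons on the left and of the longest transcript on the right. Short lines are medians, and the ATPases span the narrowest range on both lengths.

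Among the activators, which cap the core in place of the ATPase particle, Psme3 stood far above the interferon-inducible pair. Psme1 and Psme2 encode the 2 subunits of a ring that opens the core for peptides. Psme1 had 982 counts or 46.2 CPM and 20.9 per kilobase (19.6 to 22.3). Psme2 had 578 counts or 27.2 CPM and 15.4 per kilobase (14.2 to 16.7). They lie 5911 bases apart on chromosome 14, on opposite strands, and Psme1 was 1.36 times Psme2 per kilobase (1.22 to 1.51). On the longest transcript that ratio was 0.823, so the order of the pair depended on length, and 52.6% of the windows of Psme2 are shared with Psme2b, which had 2 counts. Unlike Psmb8 and Psmb9, both genes of this pair were well above 10 counts. Psme3, the nuclear activator that forms a ring of its own, had 6989 counts or 329 CPM and 111 per kilobase (109 to 114). It was 5.33 times Psme1 per kilobase (4.99 to 5.71). Psme4, a large nuclear activator, had 3908 counts or 183.7 CPM and 21.9 per kilobase (21.2 to 22.6), which does not differ from Psme1 beyond the counting intervals, although on the longest transcript the values were 28.3 and 23.3. Psmf1, first described as an inhibitor of the core, had 1447 counts or 68.0 CPM and 10.6 per kilobase (10.03 to 11.1).

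Of the 7 assembly factors matched by the rule, which help to build the particle and are not part of it, 3 lay at or above the median gene in CPM, beside 26.3% of all entries. Of the core chaperones, Psmg2 had 908 counts or 42.7 CPM and 24.6 per kilobase. Its partner Psmg1 had 343 counts or 16.1 CPM, and Psmg2 was 2.05 times higher per kilobase (1.81 to 2.32). In the other pair Psmg4 had 306 counts or 14.4 CPM and 25.9 per kilobase, and Psmg3 had 356 counts or 16.7 CPM and 5.79 per kilobase. Psmg3 was the only core chaperone below the median gene per kilobase. The chaperone Pomp, which rides on the partly built core, stood at 156 CPM (150.3 to 161) and 29.8 per kilobase. Of the chaperones of the base, Psmd5 had 2902 counts or 136 CPM and 18.9 per kilobase (18.2 to 19.6). Psmd9 had 1475 counts or 69.3 CPM and 9.57 per kilobase (9.09 to 10.1), with 25.5% of its exonic bases in exons of another gene. Psmd10, also called gankyrin and known from liver cancer, was listed at 0, though no window of its transcript was found in other genes and no exon of another gene overlaps it.

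Of 4 regulators of proteasome genes, 3 lay at or above the median gene in CPM, beside 26.3% of all entries. Nfe2l1, the factor that raises proteasome gene transcription when proteasome activity falls, stood at 548 CPM (539 to 558). Its level per kilobase of all exons, 101, was like those of Psmd7 and Psmd8. By the longest transcript it was lower, at 118 against 145 and 156. The related Nfe2l2 stood at 175 CPM and the protease Ddi2, which cuts NFE2L1 into its active form, at 97.3 CPM. Ngly1, which removes sugars from NFE2L1, stood at 17.1 CPM, below the median gene. Of 12 other subunits and partners in the table, 11 lay at or above the median gene, beside the same 26.3%, and those with the most counts were Txnl1, Zfand5, Usp14 and Ecpas. The thioredoxin-like Txnl1 stood at 227 CPM and 35.1 per kilobase, and Zfand5 at 197 CPM and 18.3 per kilobase. The deubiquitinase Usp14 stood at 192 CPM and 23.0 per kilobase, with 25.99% of its exonic bases in exons of Thoc1, and Ecpas at 184 CPM and 16.1 per kilobase.

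All 9 shuttle and extraction factors lay at or above the median gene, beside 26.3% of all entries, with a list median of 239.8 CPM. The shuttle Rad23b stood at 434 CPM, the unfoldase Vcp at 340 CPM with 57.4% of windows shared, the shuttle Ubqln4 at 292 CPM and the Vcp cofactor Nploc4 at 276 CPM. Of 6 genes for ubiquitin and its activating enzymes, 4 lay at or above the median gene, beside the same 26.3%. Ubb, a polyubiquitin gene, stood at 1221 CPM and the activating enzyme Uba1 at 833 CPM. Of the windows of Ubb, 58.9% are shared with other annotated genes. Uba6, the second activating enzyme, stood at 118 CPM.

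**Figure D5:**
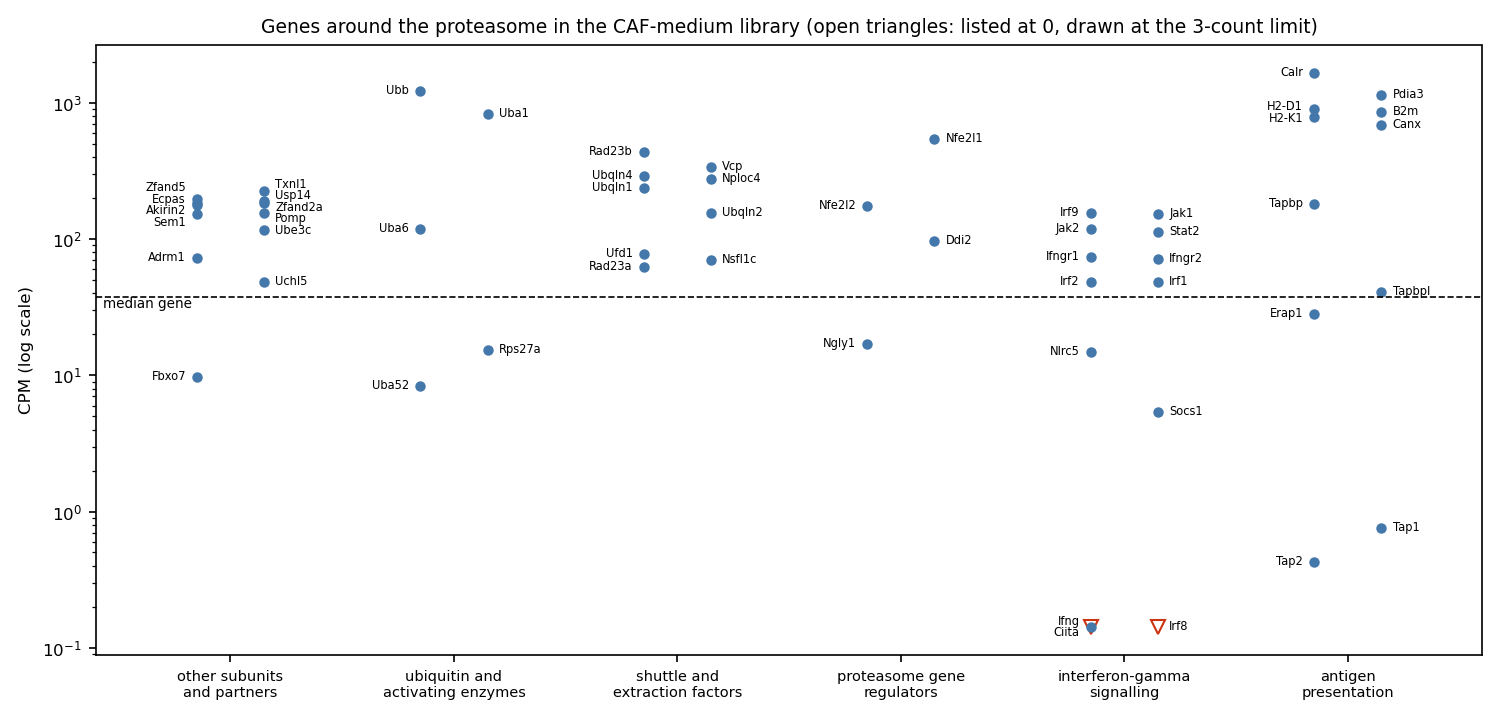
Level in CPM (log axis) of genes in 6 lists around the proteasome. The dashed line is the median gene at 37.9 CPM and open triangles are genes listed at 0, drawn at the 3-count limit. Genes not reported here are not drawn. Tap1, Tap2, Ciita, Ifng and Irf8 lie at the bottom, while Nfe2l1 at 548 CPM leads its list.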

How the data were processed

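RNA of 14837 cells in conditioned medium was sequenced on an Illumina instrument from 2 ug of total RNA, per the labels' protocols. The deposited values are whole numbers per gene symbol made by the authors, taken here as unscaled counts. HISAT2 2.1.0, StringTie and mm10 are listed in the submitters' processing notes, with no role for each. The sources used here do not state the counting step, the strand setting or how reads with several matches were treated. The name of 1 value column matched neither library and that column was not used, so the 2 media were not compared.

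CPM is the count divided by the library total of 21269197, times 1000000. Poisson and Clopper-Pearson intervals (ratios of counts, 15 pairs) were exact at 95%. They cover counting error only, since reads can be copies of 1 molecule. Their test on simulated Poisson counts checked the computation. It could not show whether the counts of this library follow that distribution. Lengths, positions and overlaps came from GENCODE M21 (mm10), which matched 99.6% of symbols. Shared windows are 64-base pieces, every 16 bases, of the longest transcript found in transcripts of other genes. Genes whose annotated bodies overlap the gene were left out of this search. Named genes are all 48 members, and in each other list the 4 highest, any under 10 counts, and Nfe2l1, Irf1, Nlrc5, Tap1, Pomp and Adrm1. A few genes that this rule takes are not reported here. Exceptions, named after their values were seen, are Sem1, Tapbp, the marker genes, Atp5a1, Uqcrc1 and the genes around Tap1. Pairs besides the 3 catalytic ones, the motifs' final form and the 100 kb window were chosen after counts had been seen. Members and lists were chosen with earlier results of these data known. Alternatives changed the count minimum, scaling total, gene length and use of genes with shared windows. Computation used scipy 1.17.1, numpy 2.4.6 and pandas 2.3.3 under Python 3.11.15, with matplotlib 3.10.9 for plots.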

Additional observations from a re-analysis of the deposited data

How the results depend on the processing

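The number of members with at least 10 counts, 43, became 45 with a minimum of 1 count and 43 with 100 counts. The number at or above the median gene, 38, ran from 32 (of the 41 members with under 10% of windows shared) to 42 (per kilobase). The median of all members, 149 CPM, was 172 with the total less the 100 highest genes, 169 over members with at least 10 counts, and 164 over those with under 10% of windows shared. For the constitutive beta group the first and last of these gave 219.8 and 214 CPM in place of 190.3. The immunoproteasome median, 0.047 CPM, became 15.6 CPM with a minimum of 10 counts, which leaves Psmb10 alone. The count of Psmb5 over the 3-count limit of Psmb8, 2870 per kilobase of all exons and no bound on expression, was 1619 on the longest transcript and 763 in counts with no length, and Psmb7 over Psmb10 was 12.2 in counts. No direction of the 3 catalytic pairs turned. With Psmb8 listed at 0 and Psmb9 at 1 count, the change of length could not have turned their pairs. Psme1 over Psme2 (1.36) and Psmd11 over Psmd13 (0.931) turned to 0.823 and 1.18 on the longest transcript, an alternative added after seeing the data. No paired analysis was possible because only 1 value column could be tied to a library. For the same reason the difference between the media was not computed with TMM factors or with no minimum. The thymoproteasome group left no gene at a minimum of 10 counts. The limit for an entry at 0 covers counting error only.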
